A study of Oryza sativa with 12 samples.

Results

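This account covers the positions of rice chromosome 5 transcripts at which R9308 and Xieqingzao B, the parents of the hybrid Xieyou9308, carried different bases. A position was taken when its transcript identifier placed it on chromosome 5, when each parent showed 1 single base that was the same at the tillering and heading stages, and when the base of one parent was not that of the other. The rule gave 2180 sites in 756 transcripts of 693 loci, of 17925 listed positions in 1930 loci of chromosome 5. Sites were counted in each transcript, so 1 difference can count more than once at the 56 loci with sites in more than 1 transcript. The same rule gave 29935 sites on all chromosomes, of 249857 listed positions. The libraries were made from roots of Xieyou9308, of its male parent R9308, a restorer line, and of its female parent Xieqingzao B, all grown in the field and then in nutrient solution. For every genotype, 2 roots were collected at tillering and 2 at heading, giving 12 samples in 6 combinations. The authors pooled the reads of both roots of a combination before they called bases. The spread between roots therefore cannot be seen. Exact-test p-values and intervals of read shares cover only the counting error of reads, which PCR copies can make too small. Intervals over sites or loci treat these as independent of each other. Neighbouring sites often had the reference base in the same parent, so such intervals can be too narrow.

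Cultivated rice is divided into 2 subspecies, indica and japonica, and the reference genome comes from Nipponbare, a japonica cultivar. Locus numbers run along the chromosome, so that neighbouring numbers belong to neighbouring genes. In a first-generation hybrid, every nuclear gene is present as 1 copy from each parent in the same cells, and reads that cover a position at which the parents differ can be assigned to a parent by their base. A share of R9308 reads of 50% stands for equal amounts of both parental transcripts. Each site is written here with the reference base, its position in the transcript counted from the first base, and the base of the parent that did not carry the reference base. No genome coordinates, introns or untranslated regions are given, because the annotation of this build was not used here.

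R9308 carried the reference base at 1908 of the 2180 sites, or 87.5% (Wilson 95% interval 86.1% to 88.8%). Xieqingzao B carried it at 271 sites (12.4%), and neither parent at 1 site. Over all chromosomes the share of sites with the reference base in R9308 was 77.2%, with a range from 58.2% to 94.1% between chromosomes, and chromosome 5 ranked 4 of 12 from the highest. At 574 loci all differences had the reference base in R9308, at 71 loci all had it in Xieqingzao B, and 47 loci held both kinds. Transitions made up 64.4% of the sites with the reference base in R9308 (62.2% to 66.5%) and 70.5% of those with it in Xieqingzao B (64.8% to 75.6%). These intervals overlapped.

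The differences were unevenly spread over loci. The median locus held 2.00 sites, 255 loci held 1 site, 125 held at least 5 and 31 held at least 10. Os05t0492200 held the most, 32 sites from C622T to G3572C, with the reference base in R9308 at every one. It was followed by Os05t0365500 with 30 sites, by Os05t0376300 with 29 sites over its 4 transcripts, by Os05t0180400 with 25 sites and by Os05t0365700 with 24. In Os05t0180400 the reference base was in Xieqingzao B at all 25 sites, the reverse of Os05t0492200. Sites of the same transcript lay a median of 126 bases from their neighbour, and 45.3% of 1424 neighbouring pairs were within 100 bases, so that many sites of a transcript shared reads.

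Loci were then ordered by locus number and split into 100 windows of 5000 locus numbers. A window with at least 5 sites was called R-reference when at least 80% of its sites had the reference base in R9308, X-reference when at most 20% did, and mixed otherwise, and a window with fewer sites was called sparse. Adjacent windows of 1 class were joined, which gave 33 blocks. These were 12 R-reference blocks of 38 windows, 2 X-reference blocks of 4 windows, 7 mixed blocks of 8 windows and 12 sparse blocks of 50 windows, 22 of which held no site. The R-reference blocks nearest to the threshold had 82.1% of 95 sites and 84.2% of 19 sites with the reference base in R9308, and the mixed window nearest to it had 77.8% of 18 sites. At the other threshold, the highest X-reference window had 12.0% of 25 sites and the lowest mixed window 36.4% of 11 sites.

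**Figure D1:**
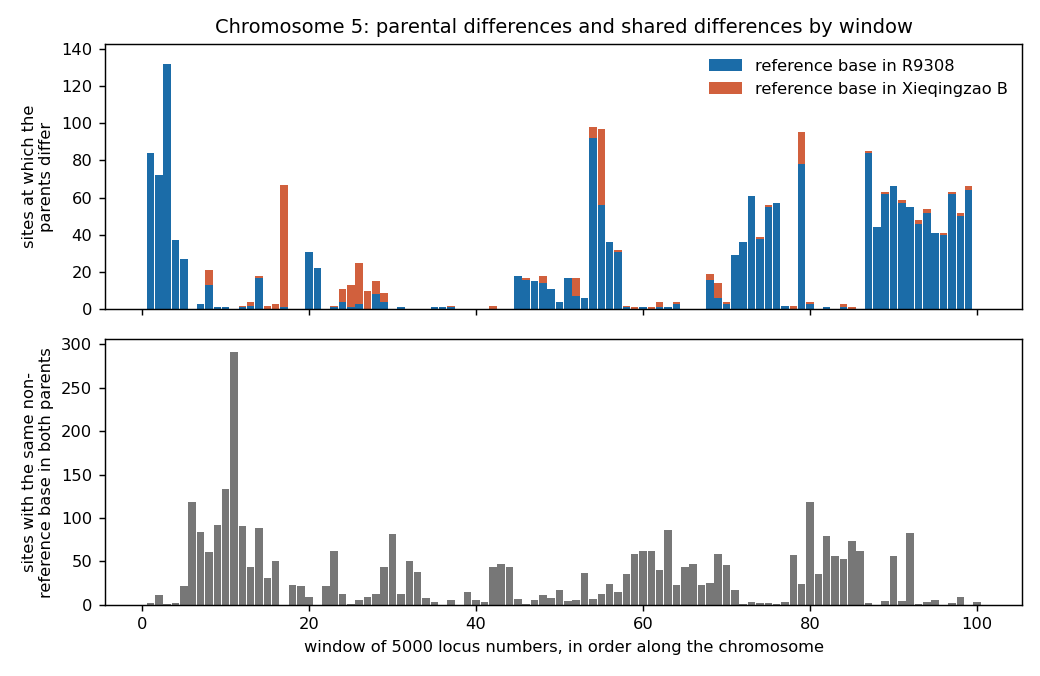
The upper panel plots the number of sites at which the parents differed in each of the 100 windows of 5000 locus numbers along chromosome 5, split by the parent that carried the reference base, and the lower panel the number of sites at which both parents carried the same non-reference base. Parental differences peaked at 132 sites in 1 window of the first block, and the windows with few of them were often those with many shared non-reference bases.

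The R-reference blocks held 1802 sites, 82.7% of all differences, and 21 of their 38 windows had the reference base in R9308 at every site. Most of these sites fell into 3 blocks, which together held 1367 sites or 62.7% of all. The first, from Os05t0100016 to Os05t0123000, lay at the start of the chromosome and held 352 sites in 96 of its 139 listed loci, every one with the reference base in R9308. The second, from Os05t0450300 to Os05t0479800, held 278 sites with the reference base in R9308 at 276. The third and longest, from Os05t0530600 to Os05t0594800, held 737 sites in 256 of 366 listed loci, with the reference base in R9308 at 723 sites. The site of Os05t0594800, the last locus with a difference on the chromosome, was among the 14 sites of this block with the reference base in Xieqingzao B.

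Runs were also counted without windows, over the loci that held a difference, and loci without one were passed over. The longest run of loci with the reference base in R9308 at every site covered 97 loci and 355 sites, from Os05t0100016 to Os05t0131100. It crossed a window of 33 listed loci of which 0 held a difference. The next longest had 52 loci, from Os05t0449900 to Os05t0466800. Runs of at least 10 loci with the reference base in R9308 at every site numbered 17. The longest run with the reference base in Xieqingzao B at every site had 11 loci and 30 sites, from Os05t0227600 to Os05t0237100.

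Smaller R-reference blocks lay in the middle of the chromosome. That from Os05t0197300 to Os05t0202550 had 53 sites, all with the reference base in R9308, and that from Os05t0320700 to Os05t0334750 had 50 sites, all but 1 of this kind. From Os05t0364500 to Os05t0384800 an R-reference block of 104 sites, a mixed block of 97 sites and an R-reference block of 68 sites followed each other. In the mixed block, from Os05t0370000 to Os05t0374600, R9308 carried the reference base at 56 sites and Xieqingzao B at 41. The block from Os05t0490000 to Os05t0493800, with Os05t0492200, had 95 sites, of which 17 had the reference base in Xieqingzao B.

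Both X-reference blocks lay between Os05t0180300 and Os05t0233000. The block from Os05t0180300 to Os05t0182550 held 67 sites in 11 of 20 listed loci, 66 of them with the reference base in Xieqingzao B. Os05t0180400 and Os05t0181000, with 25 and 13 sites, held the most. No position of this block had a non-reference base shared by both parents. The block from Os05t0220100 to Os05t0233000 held 48 sites in 16 of 32 listed loci, 44 of them with the reference base in Xieqingzao B, and 15 shared non-reference positions.

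Density was counted per listed locus, because the positions in the table are transcript positions and locus numbers do not measure physical length. The R-reference blocks had 2.08 sites per listed locus, the X-reference blocks 2.21, the mixed blocks 1.47 and the sparse blocks 0.0697. The density of R-reference blocks was 1.41 times that of mixed blocks (95% interval 1.22 to 1.64, sites taken as independent) and 29.8 times that of sparse blocks. The ratio to mixed blocks fell to 1.1 (0.945 to 1.29) with windows of 2500 locus numbers. Of the listed loci, 63.7% held a parental difference in R-reference blocks (Wilson interval 60.5% to 66.9%), 51.9% in X-reference blocks (38.7% to 64.9%), 47.4% in mixed blocks (39.3% to 55.8%) and 5.60% in sparse blocks (4.26% to 7.33%). Sparse windows were defined by their low number of sites, so their low density is a description of the class.

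Positions at which both parents carried the same single base and this was not the reference base, of which there were 3225, were spread in another way. They were no part of the rule, but they are not independent of the count of listed loci. A locus without a parental difference is listed only through another kind of position, which can be one of these. Such loci were 826 of 875 in sparse blocks and 314 of 866 in R-reference blocks. Part of the contrast in rates per listed locus can therefore come from how loci were listed. Sparse blocks held 77.6% of them, at 2.86 per listed locus, and R-reference blocks 15.2%, at 0.565 per listed locus. The density in sparse blocks was 5.07 times that in R-reference blocks. Counted per window, which does not use the listed loci, there were 50.1 such positions in sparse and 12.9 in R-reference windows. Mixed windows had 27.1 and X-reference windows 3.75. Os05t0151000 alone held 214 of these positions (6.64%), and without it the sparse blocks had 2.62 per locus. At least 1 such position was found in 63.1% of the listed loci of sparse blocks (59.8% to 66.2%) against 13.3% in R-reference blocks (11.2% to 15.7%), 9.62% in X-reference blocks (4.18% to 20.6%) and 47.4% in mixed blocks (39.3% to 55.8%). The longest sparse stretch, of 15 windows, held 7 parental differences and 355 shared non-reference positions in 118 loci. The stretch of 7 windows just before the last R-reference block held 9 and 478 in 184 loci.

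**Figure D2:**
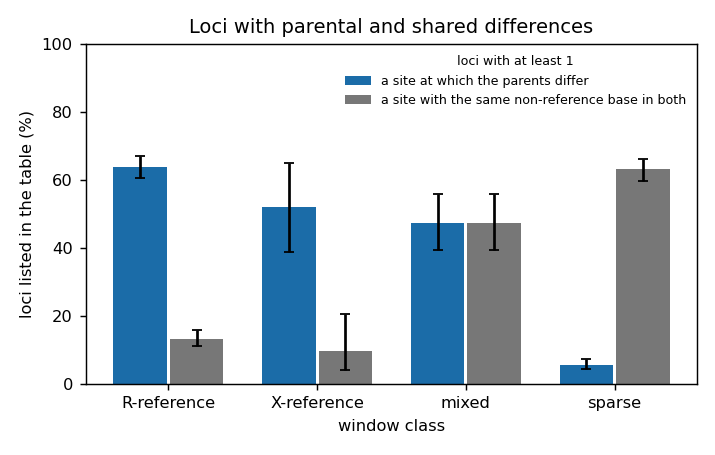
Bars give the percent of listed chromosome 5 loci with at least 1 parental difference and with at least 1 non-reference base shared by both parents in each class of window, and error bars are Wilson 95% intervals. Loci with a shared non-reference base made up 63.1% in sparse blocks and 13.3% in R-reference blocks.

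In Xieyou9308, both parental bases were called at 1554 sites (71.3%) at each stage. Only the R9308 base was called at 77 sites at tillering and 92 at heading, only the Xieqingzao B base at 80 and 77, and no base at 469 and 457. A base that neither parent carried was called at 0 sites. Median reads at the 2180 sites ranged from 27.0 to 40.0 between the parental combinations. No hybrid median is set beside these, because many of the sites had no hybrid base. Read totals at the sites ranged from 92694 to 181661 between the 6 combinations. Of the 797 sites with at least 20 hybrid reads at both stages, 792 had both parental bases at both stages. Of the 1380 sites where both parents had 10 reads or more at tillering and at heading alike, 217 (15.7%) had no hybrid base at either stage, against 14.9% over all chromosomes. Why the table gives no base there was not tested. One such site was A1701G of Os05t0558400, where R9308 had 407 and 321 reads and Xieqingzao B 71 and 56.

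A call of a single parental base at a well covered site was rare, and the table gives no count of the other base there. At heading, A448G of Os05t0564400-02 had 147 Xieqingzao B reads and no R9308 base, with 96 reads in R9308 and 105 in Xieqingzao B, while no base was given at tillering. Os05t0369900, the last locus of its block, had 51 Xieqingzao B reads and no R9308 base at A1180G and 59 at A1251G at heading. Between them, at A1205G, the hybrid had 6 R9308 and 54 Xieqingzao B reads (10.0%), the lowest locus share at this stage. The parents had 7 and 67 reads at this site. In the first X-reference block, C127G of Os05t0181300-01 had 53 R9308 reads and no Xieqingzao B base at heading. G707T of Os05t0181650-00, in the same block, was called with the R9308 base alone at both stages, with 29 and 45 reads, where Xieqingzao B itself had 1 and 10 reads.

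Allele shares were computed from sites with both parental bases and at least 44 hybrid reads. Pairs of 1 to 12 reference and 13 to 31 alternative reads, which can be read as a calendar date, occurred at 203 sites at tillering and 215 at heading, whereas the mirrored pairs occurred at 0 and 2. The order of the reads in such pairs is thus uncertain, and they reached at most 43 reads. The minimum left 691 sites of 302 loci at tillering and 624 sites of 274 loci at heading. Summed over these sites, R9308 reads made up 53.6% at tillering (53.2% to 53.9%) and 52.7% at heading (52.3% to 53.1%).

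The R9308 share, averaged over the sites of a locus, had a median over loci of 54.2% in R-reference blocks at tillering (95% interval of the median 52.7% to 55.3%, 248 loci) and of 52.9% at heading (51.6% to 54.2%, 225 loci). In X-reference blocks it was 45.7% at tillering (38.3% to 58.0%, 11 loci) and 48.7% at heading (39.7% to 59.1%, 12 loci). In mixed blocks it was 51.7% (50.7% to 56.5%, 30 loci) and 55.0% (49.2% to 61.6%, 27 loci), and in sparse blocks 51.9% (46.7% to 71.7%, 13 loci) and 55.4% (35.0% to 68.9%, 10 loci). At both stages the X-reference interval overlapped that of the R-reference blocks. The 3 largest R-reference blocks were close to each other, with 53.0% and 52.8% in the first, 53.8% and 55.0% in the second and 54.5% and 52.1% in the third at tillering and heading.

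**Figure D3:**
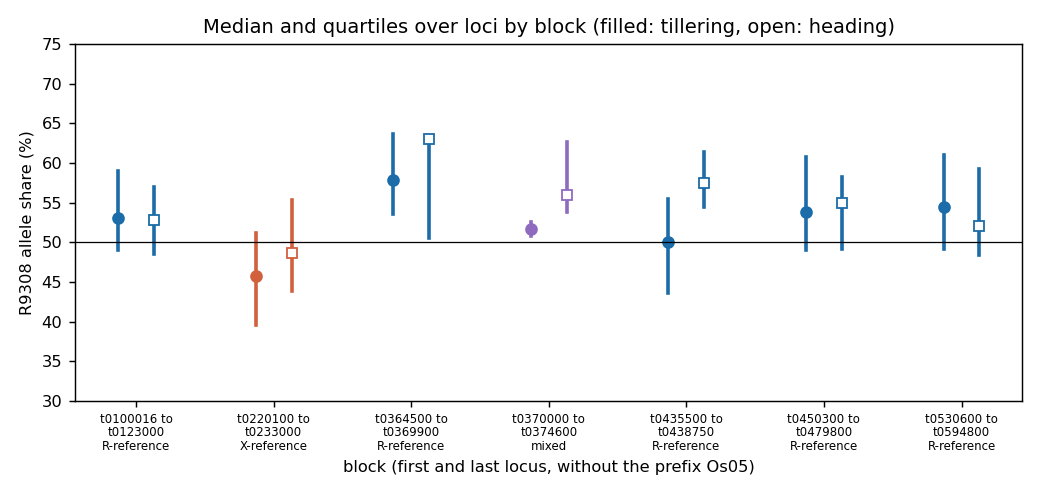
Points are the median R9308 allele share in percent over the loci of each block with at least 5 such loci at both stages, filled for tillering and open for heading, and lines join the quartiles over loci. Medians of the 3 largest R-reference blocks lay between 52.1% and 55.0%, and that of the second X-reference block at 45.7% and 48.7%.

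The share went with the parent that carried the reference base. Over chromosome 5 loci, sites with the reference base in R9308 had a median share of 54.4% at tillering (53.2% to 55.7%) and 53.6% at heading (52.2% to 54.9%). Sites with it in Xieqingzao B had 46.2% (42.9% to 48.7%, 43 loci) and 50% (45.1% to 51.8%, 40 loci). Over all chromosomes the medians were 53.6% and 46.1% at either stage. Some loci held both kinds of site. At tillering the R9308 share was higher at their sites with the reference base in R9308 at 13 of 16 loci. The median difference was 5.21 percentage points (range -4.60 to 48.1). At heading this held at 13 of 14 loci, with a median of 10.9 points (-8.35 to 28.9). Over all chromosomes it held at 241 of 301 loci at tillering (median 7.70 points) and 228 of 288 at heading (8.17 points). Both alleles of such a locus come from the same cells and library. Block class and reference parent go together by definition, so the part of mapping to the reference in the block medians cannot be told apart from that of the block.

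**Figure D4:**
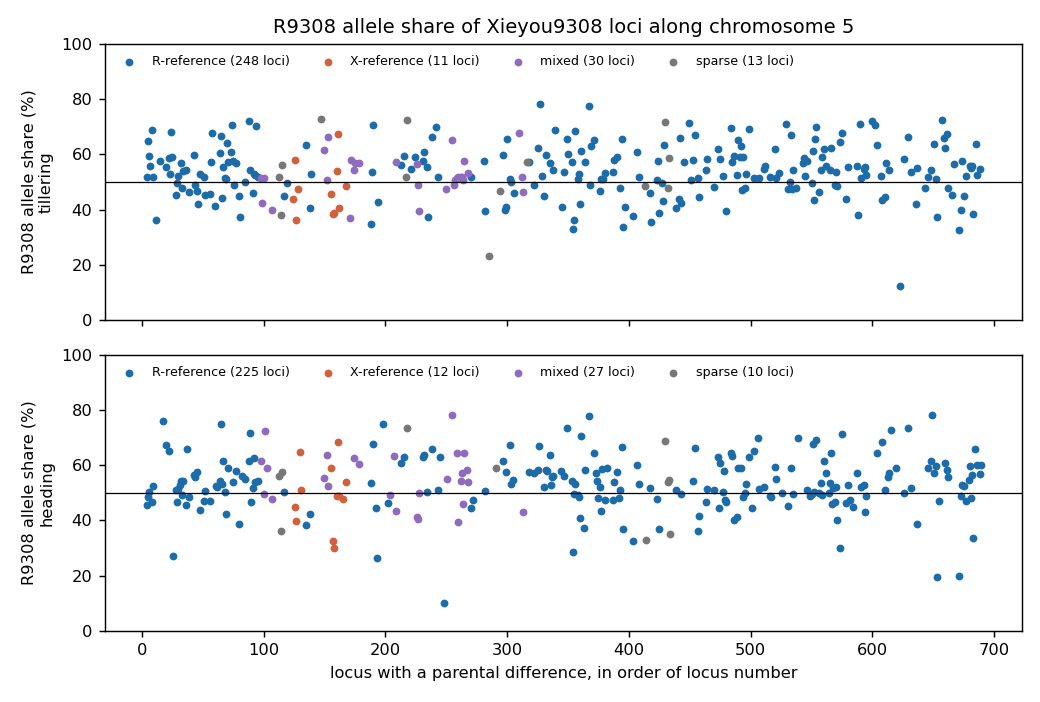
Each point is the R9308 allele share in percent of a locus with at least 44 hybrid reads at 1 site or more, in order of locus number, at tillering (upper panel) and heading (lower panel), coloured by window class. Loci of every class were scattered on both sides of the line at 50%, from 12.2% to 78.3% at tillering and from 10.0% to 78.2% at heading.

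Bias was tested at 1 site per locus, the best covered one with at least 44 reads at both stages, by a two-sided exact binomial test against 50% with Benjamini-Hochberg adjustment over 2408 loci of the whole table, 206 of them on chromosome 5. At tillering 33 loci of chromosome 5 (16%, against 14.4% of all loci tested) were biased towards R9308 and 10 (4.85%, against 7.23%) towards Xieqingzao B at an adjusted p under 0.05. At heading these were 36 (17.5%, against 15.7%) and 15 (7.28%, against 7.81%). These shares were near the background of the table. Bias towards R9308 was called at 20 loci at both stages and towards Xieqingzao B at 6, no locus was called in opposite directions, and 138 were called at neither stage.

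These calls rest on the counting error alone. With a beta-binomial test that takes in the spread between sites of the same locus, 0 loci of chromosome 5 were called at tillering in either direction (background 0.291% towards R9308 and 0.332% towards Xieqingzao B), the lowest adjusted p was 0.11, and 18 loci (8.74%, against 264 of all 2408) had an unadjusted p under 0.05. At heading the beta-binomial test called 1 locus, Os05t0373500, towards R9308 (background 0.374%) and 0 towards Xieqingzao B (0.457%), with 23 loci (11.2%, against 12.7% of all loci tested) at an unadjusted p under 0.05. The exact test was also run against the median share of all sites with the same reference parent in place of 50%. It called 26 loci towards R9308 and 21 towards Xieqingzao B at tillering (background 10.7% and 10.6%), and 23 and 27 at heading (11.1% and 10.5%). This test is centred on medians of the same data, so near-equal numbers in both directions over the table are built into it.

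By class, 29 of 171 R-reference loci were called towards R9308 at tillering and 32 at heading, and 7 and 11 towards Xieqingzao B. These were 17.0%, 18.7%, 4.09% and 6.43%, near the 16.7%, 18.1%, 5.10% and 5.51% of all tested loci of the table whose site had the reference base in R9308. Of 8 X-reference loci, 0 were called towards R9308 at tillering and 1 at heading, and 3 and 2 towards Xieqingzao B. Over the table, loci whose site had the reference base in Xieqingzao B were called towards R9308 in 4.71% and 6% and towards Xieqingzao B in 16.1% and 17.3%. The largest excess of R9308 reads by p at tillering was at A2245G of Os05t0113400, in the first block, with 67.9% (64.0% to 71.5%, adjusted p = 7.5e-16 by the exact binomial test). At heading the site had 39 R9308 and 13 Xieqingzao B reads (75%, 61.8% to 84.8%). A neighbouring site, T2386C, had 68 and 36 reads at tillering (65.4%). Set on the totals of each parent at all sites of the rule, the parents' own reads gave R9308 66.3% at tillering and 74.5% at heading, close to the hybrid.

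Os05t0558400, in the third block, was high in R9308 reads at 2 sites and both stages. At T1818C the hybrid had 275 R9308 and 137 Xieqingzao B reads at tillering (66.7%) and 210 and 92 at heading (69.5%). C413T had 62 and 23 reads (72.9%) and 143 and 65 reads (68.8%). Os05t0561600, in the same block, had 132 and 72 reads at T1422C at tillering (64.7%) and 247 and 116 at heading (68.0%), and G380A of this locus had 60.2% and 60.5%. Os05t0119700, in the first block, had 72.1% at C126T at tillering from 137 and 53 reads and 61.3% at heading from 38 and 24 reads, where it was not called (adjusted p = 0.25, exact binomial test).

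Outside the R-reference blocks, Os05t0349500, annotated as a pleckstrin homology-type domain containing protein, lay in a sparse window and had its difference at A331C. The study lists this locus among its strongly biased transcripts, which were chosen by allele shares in the same reads. Pleckstrin homology domains are protein modules known to bind membrane phosphoinositides. At tillering the hybrid had 125 R9308 and 48 Xieqingzao B reads (72.3%, 65.2% to 78.4%). It had 103 and 37 of them at heading (73.6%, 65.7% to 80.2%), so that the stages differed by 1.32 points. Os05t0218400, in a mixed block, had 243 and 124 reads at G1786C at tillering (66.2%) and 275 and 176 at heading (61.0%). Another site of this transcript, G511A, with the reference base in Xieqingzao B, lay on the other side of 50% at heading, with 42 and 54 reads (43.8%). The scaled parental reads at G1786C gave R9308 46.9% at tillering and 72.6% at heading. This was a rise across 50%, whereas the hybrid share fell and stayed above 50%.

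Towards Xieqingzao B, Os05t0475400 in the second block had the lowest p at tillering, at G671A with 49 R9308 and 117 Xieqingzao B reads (29.5%, 23.1% to 36.9%, adjusted p = 3.4e-06 by the exact binomial test), and 92 and 172 reads at heading (34.8%). At A302G and G649A the shares were 28.2% and 29.1% at tillering and 32.6% and 36% at heading. T809C, further along the transcript, had 64 and 67 reads at tillering (48.9%) and 89 and 111 at heading (44.5%), so the bias seen at the other 3 sites was smaller there. Sites of Os05t0531500 were spread to both sides of 50%. A1029C had 36.8% at tillering and 41.7% at heading and C1295T 48.4% and 46.0%, while A287G had 31 R9308 and 16 Xieqingzao B reads at heading (66.0%) and C301T 31 and 38 (44.9%).

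Sites of Os05t0542600 pointed in opposite directions. At C637T, where Xieqingzao B had the reference base, the hybrid had 32 R9308 and 80 Xieqingzao B reads at tillering (28.6%) and 23 and 82 at heading (21.9%). At G669A, where R9308 had the reference base, it had 56 and 17 reads (76.7%) and 43 and 18 reads (70.5%). The parents showed the same, with 90 R9308 and 241 Xieqingzao B reads at C637T and 197 and 57 at G669A at tillering. At these 2 sites the allele with the reference base had more reads in parents and hybrid. At A166T, where R9308 also had the reference base, the reverse was seen at heading, with 16 R9308 and 36 Xieqingzao B reads in the hybrid (30.8%) and 45 and 130 in the parents. The call towards Xieqingzao B at this locus therefore depends on the site that was read.

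In the X-reference blocks, Os05t0224800 had 49 R9308 and 79 Xieqingzao B reads at G847T at tillering (38.3%) and 60 and 125 at heading (32.4%), and the scaled parental reads gave R9308 33.1% and 34.4%. Os05t0224900 had 15 and 42 reads at A978G (26.3%) and 27 and 63 (30.0%), beside 28.5% and 24.6% in the parents, but G1788A of this transcript had 23 and 22 reads at tillering (51.1%). In Os05t0181000 the best covered site, C1517T, had 61 and 73 reads at tillering (45.5%) and 45 and 55 at heading (45.0%). T1758C and G2366A of Os05t0181000 had 28.1% and 23.8% at tillering and no hybrid base at heading, where the parents had 32 and 109 reads at the one and 49 and 131 at the other. In Os05t0180400, 7 sites reached 44 reads at tillering, with shares from 29.7% to 55.6%, and none did at heading.

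A pair of further loci from the study's list of strongly biased transcripts, chosen by allele shares in the same reads, had few reads. Os05t0576500, annotated as a hypothetical gene, had the lowest locus share at tillering, 6 R9308 and 43 Xieqingzao B reads at C2229T (12.2%), and fewer than 44 reads at heading. Os05t0325200, annotated as a cyclin-related 2 domain containing protein, had 14 and 47 reads at A624G (23.0%) and 18 and 42 at A849T (30.0%) at heading, and no site with 44 reads at tillering. Neither locus entered the test, which needed both stages.

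No locus of chromosome 5 had a share that differed between tillering and heading by Fisher's exact test at an adjusted p under 0.05, where 0.664% of all loci tested did, and 17 of the 206 (8.25%), against 241 of all 2408, had an unadjusted p under 0.05. The median absolute difference between stages was 5.23 percentage points and the largest 25. At 130 loci (63.1%) the side of 50% on which the share lay did not change with the stage. The lowest p belonged to G1124C of Os05t0373500, in the mixed block, with 82 R9308 and 53 Xieqingzao B reads at tillering (60.7%) and 55 and 12 at heading (82.1%, 71.3% to 89.4%), a difference of 21.3 points (Fisher's exact p = 0.0023, adjusted p = 0.13). The other sites of this transcript with at least 44 reads at heading, A1294G, G1306A and A1343G, had 63.0%, 57.4% and 54.3% there, against 60.4%, 59.2% and 59.5% at tillering. The rise of the share was thus seen at G1124C and to a lesser degree or not at the sites further along. Os05t0593000, near the end of the third block, had 17 and 27 reads at A204G at tillering (38.6%) and 173 and 292 at heading (37.2%), called towards Xieqingzao B at heading alone, although the shares differed by 1.43 points. Its site G1529A had 18 and 42 reads at heading (30.0%).

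**Figure D5:**
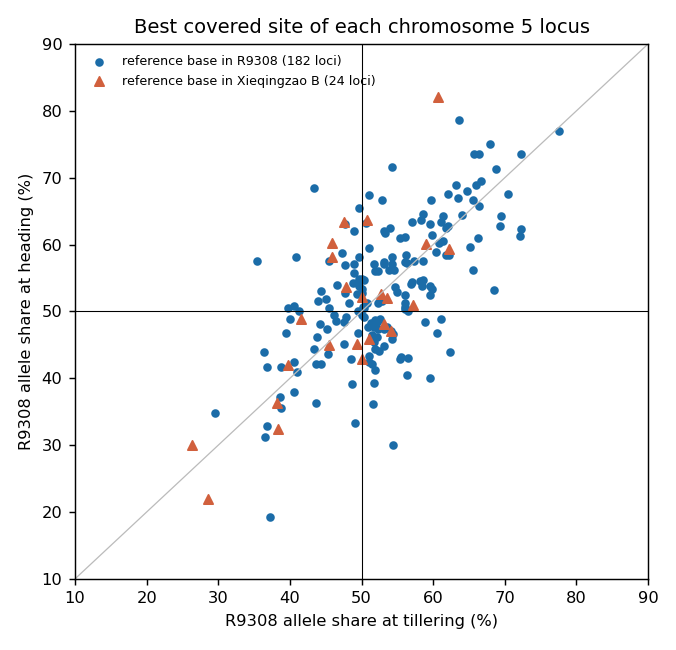
Each point is the R9308 allele share in percent at the best covered site of 1 of the 206 tested chromosome 5 loci at tillering (horizontal) and heading (vertical), with triangles for sites whose reference base is in Xieqingzao B. The grey diagonal marks equal shares, and the median distance between stages was 5.23 points.

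The hybrid shares were set beside the parents' own reads at the same sites, each parent scaled by its total at the sites of the rule on all chromosomes. The hybrid and parental shares lay on the same side of 50% at 123 of 206 loci (59.7%) at tillering and at 133 (64.6%) at heading. Among the loci called towards R9308 this held for 22 of 33 at tillering and 30 of 36 at heading, and among those called towards Xieqingzao B for 9 of 10 and 12 of 15. The Pearson correlation of hybrid and parental shares over the 206 loci was 0.61 at tillering and 0.46 at heading. The median scaled parental R9308 share of the 206 loci was 46.8% at tillering and 49.6% at heading. Being under 50%, it favours the Xieqingzao B side in these counts. The same counts were not made for the other chromosomes. Parents and hybrid were mapped to the same reference, and the part of the mapping in this likeness was not tested.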

How the data were processed

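Bases and supporting reads were taken from the table of all called positions that the authors deposited for the 12 root samples, pooled into 6 combinations. The authors filtered and trimmed paired reads and mapped them to the Nipponbare genome with RSEM. The submitters' processing notes list CASAVA 1.8 and SAMtools 0.1.16, and the caller is not given in the sources used here. The deposited read numbers are raw counts per base, given as a reference and alternative pair where 2 bases were called, and the deposited quality score was used only in an alternative with a minimum of 20.

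Members, blocks, shares and tests were computed in Python 3.11.15 with pandas 2.3.3 and scipy 1.17.1. The window and call steps were tried on simulated data with windows of 10000 locus numbers and reads with counting error alone. That trial did not cover the windows of 5000 used here or the spread between sites of a locus. The members, lists and thresholds were chosen with earlier results of these data known. The named loci were the ends of blocks with at least 50 sites and the 5 loci with most sites. The 4 called loci of lowest p per stage and direction were also named. So were 3 loci from the study's list of strongly biased transcripts, Os05t0325200, Os05t0349500 and Os05t0576500. The study chose that list by allele shares in the same hybrid reads, so the strong shares of these 3 loci follow from the choice. Os05t0131100, Os05t0151000, Os05t0181000, Os05t0181300, Os05t0181650, Os05t0227600, Os05t0237100, Os05t0449900, Os05t0466800 and Os05t0564400 were named after their values were seen. Alternatives were other windows, class thresholds, read, depth and quality minimums, 1 transcript per locus, and other tests.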

Additional observations from a re-analysis of the deposited data

How the results depend on the processing

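No paired analysis was possible because the reads of both roots of a combination were pooled in the table, and for the same reason no root could be left out. The share of sites in R-reference blocks, 82.7%, was 79.2% with at least 10 reads in each parent and 77.4% with class thresholds of 90% and 10%. With at least 20 hybrid reads, which lets in pairs that can be read as a date, the median share in R-reference blocks was 51.5% at tillering and 50% at heading, 16 loci (4.98%, against 6.27% of all loci) in place of 10 were biased towards Xieqingzao B at tillering, and 6 loci (1.87%, against 2.63%) in place of 0 differed between stages, all 6 with fewer than 44 reads at 1 stage or both. With at least 100 reads, which left 89 loci of chromosome 5, the median of mixed and X-reference blocks was 54.0% at tillering, and bias was called towards R9308 at 19 loci at tillering (21.3%, against 21.1%) and 18 at heading (20.2%, against 21.6%) and towards Xieqingzao B at 7 at heading (7.87%, against 9.41%). Against the median share of sites with the same reference parent, 21 loci at tillering (background 10.6%) and 27 at heading (10.5%) were biased towards Xieqingzao B. Towards R9308 there were 23 at heading (11.1%). This setting is centred on medians of the same data, so near-equal numbers in both directions over the table are built into it. With the beta-binomial test the calls fell to 0 towards R9308 and 0 towards Xieqingzao B at tillering and to 1 and 0 at heading. At an unadjusted p under 0.01, 4 loci (1.94%, against 4.03% of all loci) differed between stages. With windows of 2500 locus numbers there were 5 X-reference blocks in place of 2, and the ratio of shared non-reference density between R-reference and mixed blocks moved from 0.356 to 0.425. Of 109 alternative values, 88 stayed within the interval of the main value or within 1.5 times the main count. Loci below 44 hybrid reads gave no share.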
